A study of Drosophila melanogaster with 9 samples.

Results

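The vacuolar proton pump genes of the fruit fly are the 33 genes whose symbol starts with Vha among 17199 genes in a table of ovarian RNA from Drosophila melanogaster. An adjusted p was given for 21 of the 33, and for 10662 genes in all. The study sequenced total RNA of whole ovaries after removal of ribosomal RNA, 3 libraries for each of 3 lines, and compared 2 lines with edited Pcif1 with a reference line. Pcif1 is related to a mammalian protein that recognises the phosphorylated tail of RNA polymerase II. In the Pcif1 M6stop line genome editing shifted the reading frame, so that translation ends early. In the Pcif1 F9ΔNLS line the nuclear localization signal was removed without a shift, and the remaining protein has 829 amino acids. The reference, Pcif1 BG02557, has a P-element, P{GT1}, in the first intron of Pcif1. Both edited alleles were made in w1118 flies and then backcrossed for several generations to BG02557 flies, and the labels do not say whether the edited lines still carry the P-element. Each allele is a single line, 3 pairs of ovaries were taken per line, and the age of the flies is not given in the sources used here.

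The vacuolar proton pump, or V-ATPase, is a rotary machine that uses ATP to move protons into endosomes, lysosomes and secretory vesicles, and in some epithelia across the cell surface. Its V1 sector sits in the cytoplasm and hydrolyses ATP, and its V0 sector sits in the membrane and carries the protons. In insect ovaries acidified compartments take part in the uptake and storage of yolk. Flies have several genes for some subunits, and several of these copies are known to be transcribed mainly in the testis.

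All measurements are those of the authors' deposited table. It gives for each gene a mean normalized count over all libraries, a log2 fold change of each mutant line over BG02557 and a DESeq2 adjusted p. The words rose and fell are used only where that adjusted p was under 0.05, and unadjusted p-values are not analysed here. The table's values per library could not be tied to lines, so no library value, standard deviation or interval is given, and the adjusted p is the only measure used here that takes the spread between libraries into account. Whether the listed fold changes were shrunken is not stated. However, tobi was listed at -0.02 in M6stop with a DESeq2 adjusted p of 0.0045, as can happen after shrinkage. Listed sizes may therefore be understated and are not compared as sizes between genes of very different levels. A listed value near 0 is not read as a lack of change. Both comparisons share the same 3 BG02557 libraries. In the authors' deposited table Pcif1 itself (mean 3326 normalized counts) stood at -2.51 on the log2 scale in M6stop (DESeq2 adjusted p listed as 0), and its value in F9ΔNLS was 0.02 (DESeq2 adjusted p = 0.83).

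The ovary libraries had RNA for every one of the 15 pump subunits, and 1 gene per subunit supplied most of it. RNA of gut enzymes was counted as well, such as Jon65Aiv with a mean of 23558 normalized counts over all libraries according to the authors' deposited table. How that RNA was spread over the libraries is unknown here. The part of gut or renal tubule RNA in the pump levels and in the shares of each subunit was not tested. Levels are given as the authors' mean normalized counts divided by kilobases of annotated exons, and the gene with the highest such level in each subunit is called its leading gene. Positions are those of the BDGP6 build in the Ensembl annotation. The 15 leading genes lay between 1429 and 9951 normalized counts per kilobase, with ranks from 179 to 935 among the 10626 tested genes with an exon length. The same 15 genes led when coding length was used instead.

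The V1 sector has 8 subunits, each with 1 abundant gene. Vha68-2 encodes the catalytic A subunit (FBgn0263598, 2L from 12974322 to 12978607, plus strand) and had 4793 normalized counts per kilobase, from a mean of 13224 according to the authors' deposited table. Vha55 (FBgn0005671, 3R from 12623762 to 12627829, minus strand), the only gene for the B subunit that binds nucleotides without catalysis, had 5388 normalized counts per kilobase. The peripheral stalk, which holds the catalytic head still, is built from E, G and C subunits. Vha13 (G; 3R from 19643018 to 19644386, minus strand) had the highest V1 level by exon length, 5849 normalized counts per kilobase. By coding length the E subunit gene Vha26 stood above it, with 17990 against 15715 normalized counts per kilobase. Vha26 (E; 3R from 5591763 to 5595356, plus strand) had 4168 and Vha44 (C; 2R from 16324813 to 16336637, minus strand) had 1429 normalized counts per kilobase, the lowest of the 15. Subunit C is the part known to leave the pump when its sectors come apart. The D and F subunits form the shaft that turns in the head. Their leading genes were close in level, with 2819 normalized counts per kilobase for Vha36-1 (D; 2R from 15541435 to 15542498, plus strand) and 3125 for Vha14-1 (F; 2R from 15679426 to 15680084, minus strand). VhaSFD (2L from 16722883 to 16727826, minus strand), the H subunit that silences free V1, had 1561 normalized counts per kilobase.

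In the V0 sector the c subunit of the proton-carrying ring stood highest. Vha16-1 (c; FBgn0262736, 2R from 6625242 to 6633090, minus strand) had 9951 normalized counts per kilobase and a mean of 30619 according to the authors' deposited table, rank 59 of the tested genes by mean. Its ring partner VhaPPA1-1 (c''; 3R from 14902330 to 14904061, minus strand) had 2504 normalized counts per kilobase. VhaAC39-1 (d; X from 3880748 to 3882967, plus strand), which joins the ring to the shaft, had 3071 and the small e subunit gene VhaM9.7-b (3L from 21539862 to 21541215, plus strand) had 1828 normalized counts per kilobase. The a subunit, which holds the half-channels for protons, was led by Vha100-2 (3R from 18390323 to 18399169, minus strand) with 3167 normalized counts per kilobase. The accessory genes were close in level. VhaAC45 (2R from 9207561 to 9209774, plus strand), whose mammalian relative is ATP6AP1, had 2794 normalized counts per kilobase. VhaM8.9 (3R from 9260638 to 9262590, plus strand), the relative of the mammalian prorenin receptor ATP6AP2, had 2743.

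**Figure D1:**
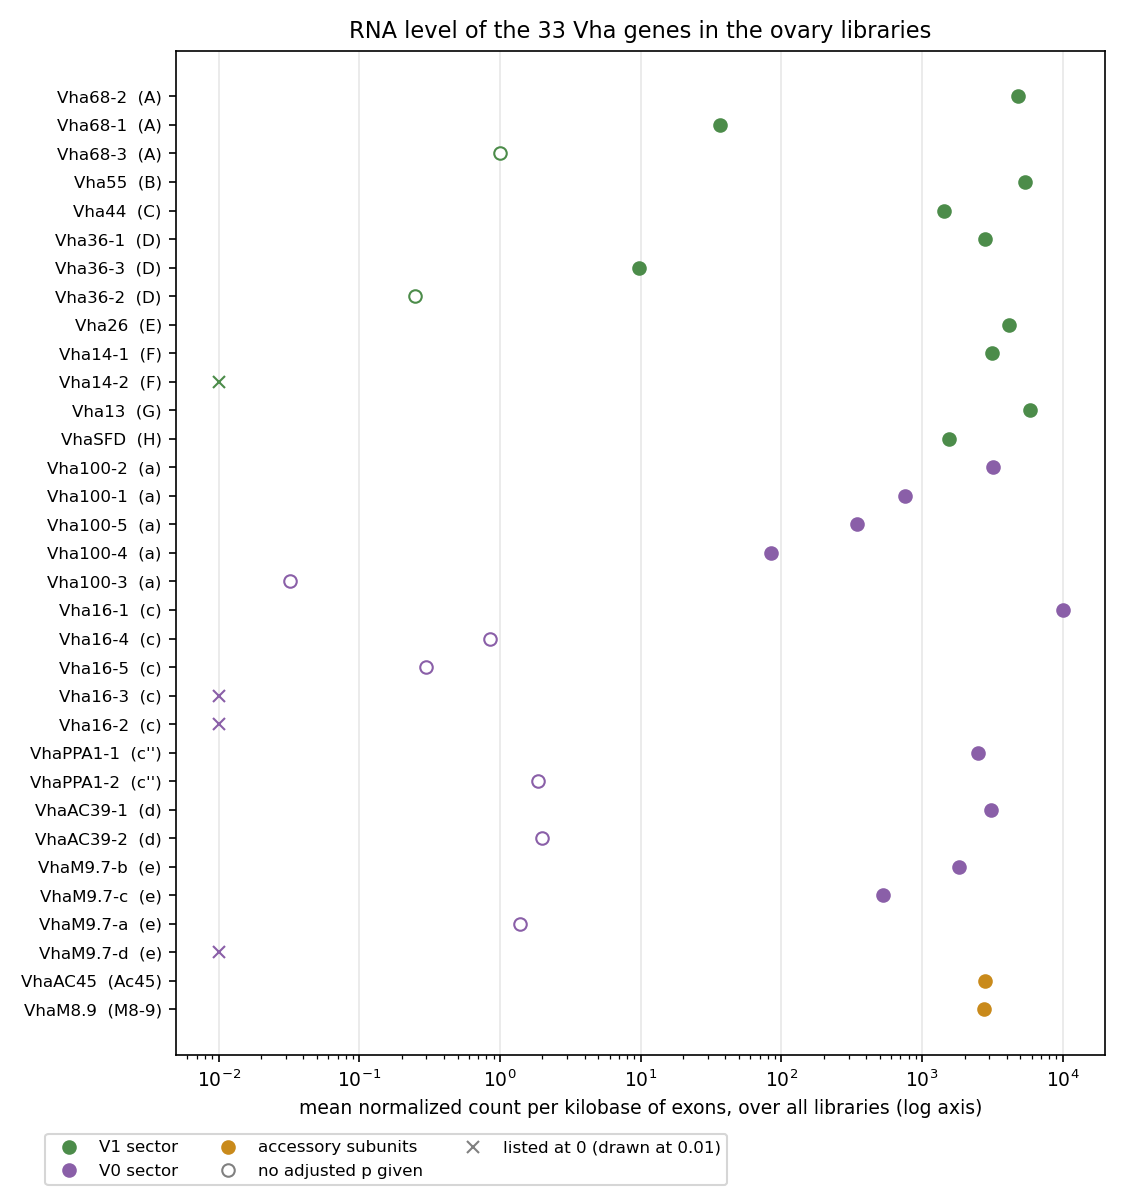
Mean level of each of the 33 Vha genes over all libraries, in normalized counts per kilobase of exons on a log axis, with the subunit in brackets; colours mark the sector, open circles genes without an adjusted p and crosses genes listed at 0. The leading genes lie between 1429 and 9951, and the next genes are Vha100-1 at 757, VhaM9.7-c at 530 and Vha100-5 at 344 normalized counts per kilobase.

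The a and e subunits were the exceptions to 1 dominant gene. Vha100-2 held 72.8% of the a-subunit level per kilobase, followed by Vha100-1 with 17.4%, Vha100-5 with 7.91% and Vha100-4 with 1.95%. Vha100-1, known from fly neurons for its role in synaptic vesicles and neuronal degradation, had a mean of 2489 normalized counts according to the authors' deposited table. VhaM9.7-b held 77.5% of the e-subunit level and VhaM9.7-c 22.4%. In each other subunit with several genes the leading gene held at least 99.2% (Vha68-2). Among the copies that stayed low, Vha68-1 had a mean of 97.4 and Vha36-3 one of 12.5 normalized counts according to the authors' deposited table.

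The 12 members without an adjusted p were all at the bottom of the range. Vha14-2, Vha16-2, Vha16-3 and VhaM9.7-d were listed at 0, and the other 8 had means of at most 2.46 normalized counts according to the authors' deposited table. These were Vha68-3, Vha36-2, Vha100-3, Vha16-4, Vha16-5, VhaPPA1-2, VhaAC39-2 and VhaM9.7-a. Abundant and much lower copies lie side by side on the chromosomes: Vha68-3 is 0.179 kb from Vha68-2, Vha100-4 is 0.518 kb from Vha100-2, and VhaPPA1-2 is 2.05 kb from VhaPPA1-1. The members are otherwise spread over the genome, with 12 on 3R, 8 on 2R, 6 on 2L, 5 on 3L and 2 on X. Of 17 male germline markers, 13 had no adjusted p either and 4 of these were listed at 0. Of the 4 with an adjusted p, 0 passed in M6stop by DESeq2, and in F9ΔNLS alphaTub84D rose (0.25) and twe fell (-0.44) according to the authors' deposited table. Of all tested genes 3.48% rose and 2.04% fell in M6stop, and 11.6% rose and 11.9% fell in F9ΔNLS. With means of 3499 (alphaTub84D) and 1626 (twe) normalized counts, these 2 genes are not read here as a measure of male germline RNA. The medians of these 4 were -0.03 in M6stop and 0.09 in F9ΔNLS on the log2 scale according to the authors' deposited table.

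In M6stop ovaries 9 of the 21 tested pump genes rose and 0 fell. That is 42.9% of them, where 3.48% of all tested genes rose and 2.04% fell. All 9 were leading genes, and they came from V1 (5 of 8 leading genes), V0 (3 of 5) and the accessory subunits (1 of 2). Their listed changes ran from 1.17-fold to 1.32-fold, a range that the threshold itself helps to set. Those of all 15 leading genes ran from 1.09-fold to 1.32-fold. The median listed change of the 21 was 0.24 on the log2 scale, against -0.0007 for all tested genes. The number depends on the threshold: 2 pump genes, Vha100-2 and Vha55, passed at an adjusted p under 0.01 in M6stop and 12 at one under 0.1.

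The V1 genes that rose encode parts of the enzyme head, the peripheral stalk and the H subunit. The shaft genes Vha36-1 (0.24, DESeq2 adjusted p = 0.060) and Vha14-1 (0.20, DESeq2 adjusted p = 0.20) did not pass according to the authors' deposited table. Nor did the stalk gene Vha13 (0.19, DESeq2 adjusted p = 0.14). Whether the parts of V1 differ in their change was not tested. In the authors' deposited table Vha55 was 0.34 higher in M6stop on the log2 scale (1.27-fold, DESeq2 adjusted p = 1.0e-04), and Vha68-2 was 0.31 higher (1.24-fold, DESeq2 adjusted p = 0.014). These encode the B and A subunits, which alternate around the catalytic head. In the peripheral stalk, Vha26 rose by 0.33 (DESeq2 adjusted p = 0.014) and Vha44 by 0.25 (DESeq2 adjusted p = 0.036) according to the authors' deposited table. VhaSFD, the H subunit gene, rose by 0.33 according to the authors' deposited table (DESeq2 adjusted p = 0.016). Vha44 shares 148 exon bases with Hmgs on the other strand, which had a value of -0.04 according to the authors' deposited table and did not pass.

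The smallest adjusted p of the family belonged to a V0 gene. Vha100-2 rose by 0.29 on the log2 scale in M6stop according to the authors' deposited table (1.22-fold, DESeq2 adjusted p = 5.5e-07), rank 92 among all tested genes. Vha16-1, the ring gene, had the largest listed change, 0.40 according to the authors' deposited table (1.32-fold, DESeq2 adjusted p = 0.019). VhaAC39-1 rose by 0.22 according to the authors' deposited table (DESeq2 adjusted p = 0.021). Of the accessory genes VhaM8.9 rose, by 0.26 according to the authors' deposited table (DESeq2 adjusted p = 0.030).

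The other 6 leading genes also had listed values above 0 in M6stop but did not pass. VhaAC45 (0.31, DESeq2 adjusted p = 0.052), Vha36-1 (0.24, DESeq2 adjusted p = 0.060) and VhaPPA1-1 (0.25, DESeq2 adjusted p = 0.066) lay just outside the threshold according to the authors' deposited table. For Vha13 the value was 0.19, for Vha14-1 0.20 and for VhaM9.7-b 0.12 according to the authors' deposited table, with DESeq2 adjusted p-values of 0.14, 0.20 and 0.42. According to the authors' deposited table the means of these 6 ran from 2060 to 5624 normalized counts, and those of the 9 that rose from 4027 to 30619. All 15 leading genes lay between percentiles 93.4 and 97.3 of the listed M6stop changes of all tested genes.

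None of the 6 tested lesser copies passed in M6stop by DESeq2. Of all tested genes 3.48% rose and 2.04% fell in M6stop, so few calls would be met among 6 genes at those shares. The authors' deposited table lists the 6 copies at values from -0.05 for Vha100-1 to 0.02 for Vha100-5, and Vha100-4, Vha68-1, Vha36-3 and VhaM9.7-c lay between. Of these only Vha100-1, with a mean of 2489 normalized counts, reached the range of means of the leading genes. Whether the a-subunit copies differ from each other in their change was not tested. Vha100-5 overlaps an antisense RNA gene over 527 exon bases, and that gene was listed at 0.

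**Figure D2:**
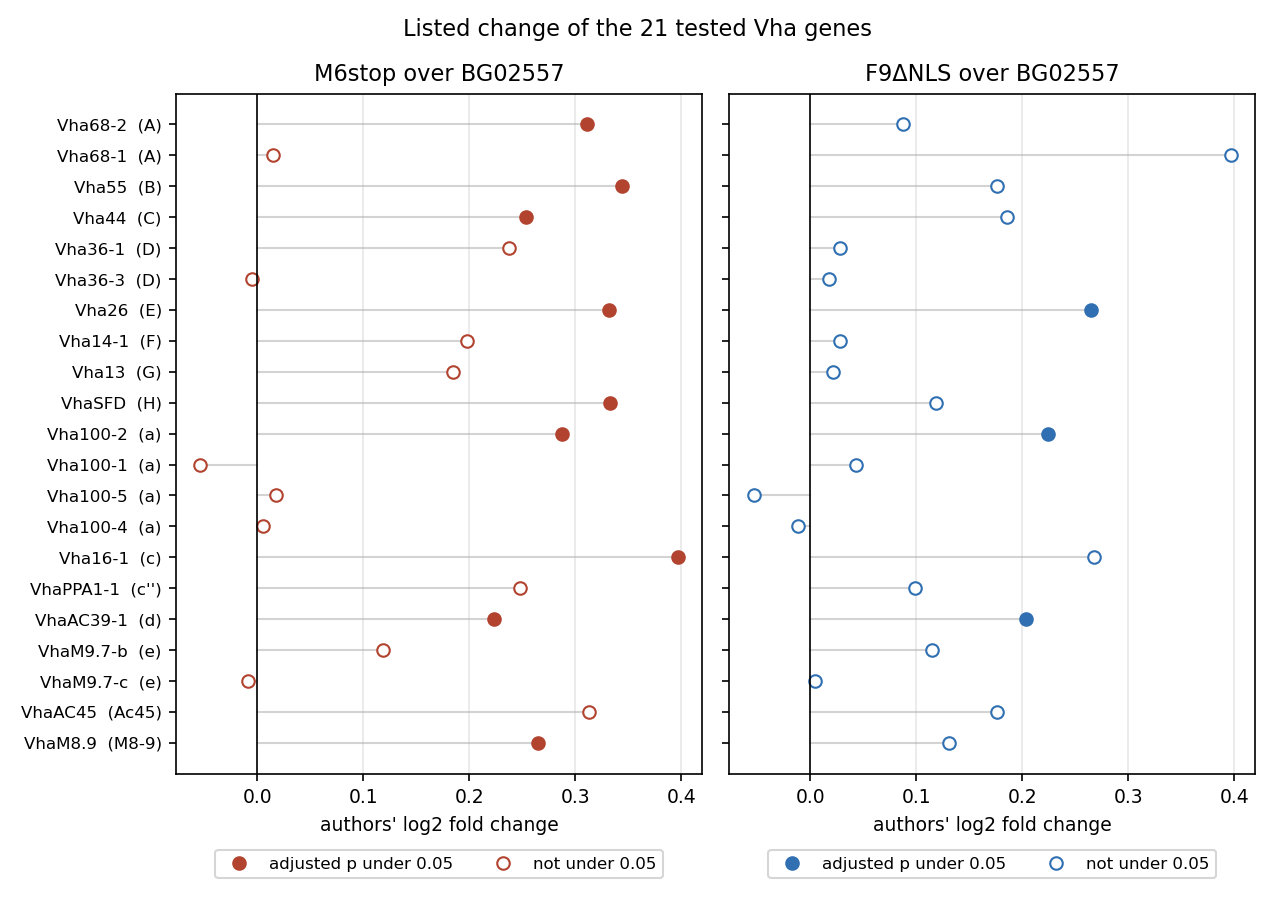
Authors' log2 fold change of the 21 tested Vha genes in M6stop (left) and F9ΔNLS (right) over BG02557; filled circles had a DESeq2 adjusted p under 0.05. In M6stop the leading genes lie between 0.12 and 0.40 and the lesser copies near 0, and in F9ΔNLS 3 genes are filled.

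In F9ΔNLS ovaries 3 of the 21 tested pump genes rose and 0 fell. That share, 14.3%, is near the background, since 11.6% of all tested genes rose in this line and 11.9% fell. Vha100-2 rose by 0.22 on the log2 scale according to the authors' deposited table (1.17-fold, DESeq2 adjusted p = 1.7e-04). VhaAC39-1 rose by 0.20 (1.15-fold, DESeq2 adjusted p = 0.024) and Vha26 by 0.26 (1.20-fold, DESeq2 adjusted p = 0.036) according to the authors' deposited table. At an adjusted p under 0.01 only Vha100-2 passed in this line, and under 0.1 there were 6 genes. In the pump the 3 genes encode the channel subunit a, the connector d and the stalk subunit E.

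The remaining leading genes had F9ΔNLS values from 0.02 for Vha13 to 0.27 for Vha16-1 according to the authors' deposited table, and none passed. Just outside the threshold were Vha55 (0.18, DESeq2 adjusted p = 0.056), Vha68-1 (0.40, DESeq2 adjusted p = 0.069) and Vha16-1 (DESeq2 adjusted p = 0.078) according to the authors' deposited table. Vha68-1 had the largest listed value of the family in this line at a mean of 97.4 normalized counts, while its abundant partner Vha68-2 had 0.09 (DESeq2 adjusted p = 0.49) according to the authors' deposited table. The central shaft genes Vha36-1 and Vha14-1 were both listed at 0.03 in F9ΔNLS, and the H subunit gene VhaSFD at 0.12, according to the authors' deposited table. Across the 15 leading genes the listed values spanned percentiles 55.8 to 90.1 of all tested genes. The difference between M6stop and F9ΔNLS was not tested for any pump gene.

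Because pump genes are abundant, the shares were also set against the 2158 tested genes whose mean reached 2000 normalized counts. The 15 leading genes and Vha100-1 were the members above this mean. In M6stop 9 of these 16 rose (56.2%), while 4.49% of the 2158 genes did. In F9ΔNLS 3 of the 16 rose (18.8%), which is below the 22.2% of the 2158 genes. The median F9ΔNLS value of the 16 was 0.12, against 0.04 for the 2158 genes, according to the authors' deposited table.

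**Figure D3:**
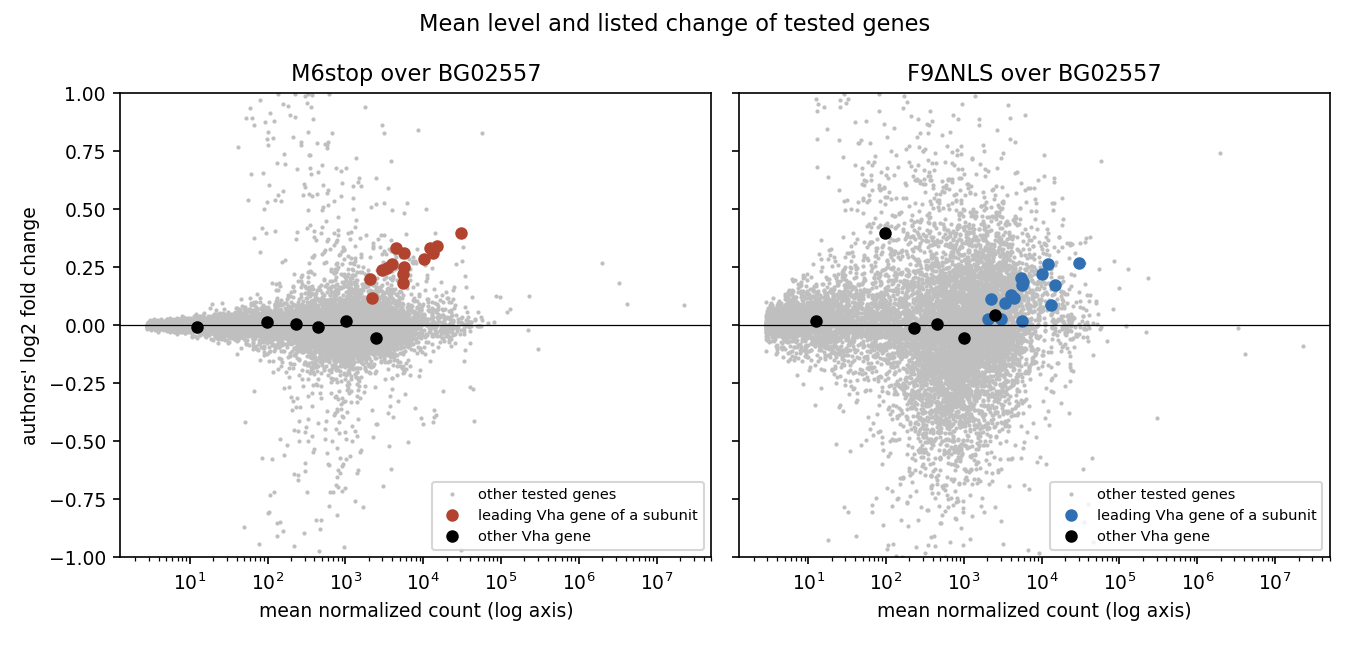
Mean normalized count (log axis) against the authors' log2 fold change for the tested genes (grey), leading Vha genes (coloured) and other Vha genes (black); the vertical axis ends at 1 on either side, which leaves out 217 genes in M6stop and 270 in F9ΔNLS and no Vha gene. In M6stop the leading Vha genes lie at percentiles 91.1 to 98.9 of the changes of tested genes with a mean of at least 2000, and in F9ΔNLS at percentiles 46.5 to 87.3.

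Genes listed as assembling or regulating the pump did not pass in M6stop. Of the 8 tested, 0 rose and 0 fell in M6stop by DESeq2, where 3.48% of all tested genes rose and 2.04% fell. So short a list would hold few calls at those shares. The 8 include CG8379, a gene whose role could not be checked here. Their median listed M6stop value was 0.01 according to the authors' deposited table. In F9ΔNLS 2 of the 8 rose (25.0%), against 11.6% of all tested genes. Both had means above 2000 normalized counts (2257 and 5367), and 22.2% of tested genes with such means rose in this line. A list of 8 gives only a rough share. The F9ΔNLS median was 0.05 according to the authors' deposited table, against 0.004 for all tested genes. Rbcn-3B, part of the complex that joins V1 to V0, rose by 0.31 (DESeq2 adjusted p = 9.4e-04), and Mitf, a transcription factor known in flies to act on pump genes, rose by 0.20 (DESeq2 adjusted p = 0.013) according to the authors' deposited table. The same genes had M6stop values of 0.12 and 0.09 according to the authors' deposited table, which did not pass.

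The list of lysosomal enzymes and their receptor held calls in both directions. Of 27 tested, 4 fell (14.8%) and 2 rose (7.41%) in M6stop, where 2.04% of all tested genes fell and 3.48% rose. In F9ΔNLS 8 fell (29.6%) and 1 rose (3.70%), where 11.9% of all tested genes fell and 11.6% rose. The list had median listed values of -0.0006 in M6stop and -0.06 in F9ΔNLS according to the authors' deposited table. CG3376, an acid sphingomyelinase gene, fell in both lines, with values of -0.82 in M6stop (DESeq2 adjusted p = 1.1e-14) and -0.83 in F9ΔNLS (DESeq2 adjusted p = 6.4e-16) according to the authors' deposited table. Hexo2, a hexosaminidase gene, fell as well (-1.01 in M6stop and -2.12 in F9ΔNLS), and so did the cathepsin L gene Cp1 (-0.37 in M6stop and -0.29 in F9ΔNLS) according to the authors' deposited table. Lerp, the receptor that carries enzymes to lysosomes, rose by 1.10 in M6stop (DESeq2 adjusted p = 6.8e-05) and had a value of 0.30 in F9ΔNLS that did not pass, according to the authors' deposited table. The other M6stop rise was that of the palmitoyl-protein thioesterase gene Ppt1, listed at 6.06 (DESeq2 adjusted p = 0.0063) with a mean of 21.6 normalized counts according to the authors' deposited table. The fourth M6stop fall, that of tobi, had a size of only -0.02 according to the authors' deposited table. The F9ΔNLS rise was that of CG14291 (1.91, with a mean of 15.5 normalized counts) according to the authors' deposited table. Further falls in F9ΔNLS according to the authors' deposited table were those of the fucosidase gene Fuca (-0.78) and the cathepsin F gene CG12163 (-0.16).

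Genes listed here under lysosomal membrane and transport, not all of which need act only at lysosomes, rose at shares near those of all tested genes. Of 17 tested lysosomal membrane and transport genes 1 rose in M6stop (5.88%, against 3.48% of all tested genes) and 2 in F9ΔNLS (11.8%, against 11.6%), and 0 fell in either. Their medians were -0.01 in M6stop and 0.02 in F9ΔNLS on the log2 scale according to the authors' deposited table. The amino acid transporter gene mnd rose by 0.18 in M6stop and by 0.15 in F9ΔNLS, and the sterol transporter gene Npc1a rose by 0.38 in F9ΔNLS according to the authors' deposited table. Of 30 tested endosome and fusion machinery genes 0 passed in M6stop by DESeq2, where 3.48% of all tested genes rose and 2.04% fell. In F9ΔNLS 1 of the 30 rose (3.33%) and 3 fell (10%), against 11.6% and 11.9% of all tested genes. The medians of these 30 were -0.009 in M6stop and -0.03 in F9ΔNLS according to the authors' deposited table. According to the authors' deposited table Vps11, a core member of the tethering complexes, rose by 0.33 in F9ΔNLS, and the membrane fusion genes Syx17 (-0.30) and Vamp7 (-0.25) and the Rab5 activator gene Rabex-5 (-0.30) fell.

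The growth kinase complex TORC1 is switched on at the lysosome surface, where the pump is known to take part in sensing nutrients. Of 28 tested genes of this group 1 rose and 1 fell in M6stop, and 4 rose and 1 fell in F9ΔNLS. The shares that rose, 3.57% in M6stop and 14.3% in F9ΔNLS, were close to the 3.48% and 11.6% of all tested genes. The share that fell was 3.57% in each line, against 2.04% of all tested genes in M6stop and 11.9% in F9ΔNLS. Their median log2 fold change was -0.02 in M6stop and -0.006 in F9ΔNLS according to the authors' deposited table. In M6stop foxo, a transcription factor active at low insulin signalling, rose by 0.17, and REPTOR, a transcription factor that TORC1 holds back, fell (-0.20) according to the authors' deposited table. In F9ΔNLS foxo (0.36), S6k, a kinase downstream of TORC1 (0.35), gig, the fly TSC2 gene (0.32), and Wdr59 of the GATOR2 complex (0.29) rose, and the amino acid transporter gene slif fell (-0.37), according to the authors' deposited table.

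The mitochondrial ATP synthase is the related rotary machine that runs the other way, making ATP from a proton gradient. Of its 13 tested genes 10 rose and 0 fell in M6stop, and 10 rose and 0 fell in F9ΔNLS. This is 76.9% in each line, against 3.48% of all tested genes in M6stop and 11.6% in F9ΔNLS. Their median listed changes were 0.25 in M6stop and 0.27 in F9ΔNLS. ATPsynbeta, the catalytic subunit, rose by 0.34 in M6stop and by 0.28 in F9ΔNLS according to the authors' deposited table. Its counterpart in the pump, Vha68-2, had values of 0.31 in M6stop and 0.09 in F9ΔNLS according to the authors' deposited table. The ring gene ATPsynC rose by 0.28 in M6stop and by 0.36 in F9ΔNLS, beside values of 0.40 and 0.27 for the pump's ring gene Vha16-1, according to the authors' deposited table.

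**Figure D4:**
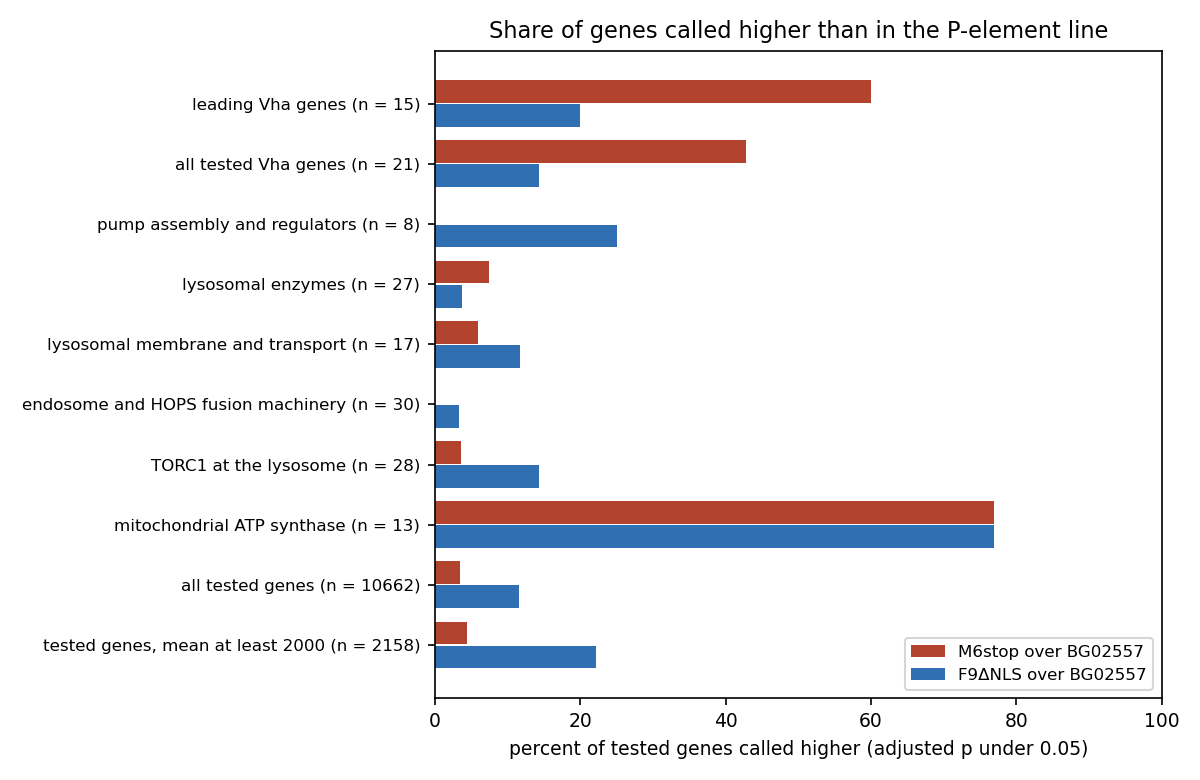
Percent of tested genes called higher than in BG02557 (DESeq2 adjusted p under 0.05) in M6stop and F9ΔNLS for the Vha genes, 6 related gene lists and all tested genes, with the number tested in brackets. The Vha share is 42.9% in M6stop and 14.3% in F9ΔNLS, and the ATP synthase share is 76.9% in both.

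Some markers of other tissues that are rich in proton pumps rose beside the pump genes in M6stop. Of 17 markers of renal tubule and gut, all tested, 3 rose and 0 fell in M6stop (17.6% rose, against 3.48% of all tested genes), and 2 rose and 0 fell in F9ΔNLS (11.8% rose, close to the 11.6% of all tested genes). Their median log2 fold change was 0.004 in M6stop and -0.01 in F9ΔNLS according to the authors' deposited table. Uro, the urate oxidase gene of the renal tubule, rose by 1.89 (DESeq2 adjusted p = 0.033), the potassium channel gene Irk2 by 1.27 (DESeq2 adjusted p = 0.019) and the cotransporter gene NKCC by 0.99 (DESeq2 adjusted p = 0.040) in M6stop according to the authors' deposited table. In F9ΔNLS NKCC (0.65) and the zinc transporter gene ZnT35C (0.64) rose according to the authors' deposited table. None of the 17 was listed at 0, and their mean normalized counts sum to 8.76e+04, most of it in digestive enzymes of the gut such as Jon65Aiv (23558) and betaTry (19920). These enzymes had M6stop values of 0.007 and -0.002 according to the authors' deposited table and did not pass. Since listed sizes may be shrunken, such values do not show that gut RNA was equal between the lines. The sums per line are not analysed here, and the part of renal tubule or gut RNA in the rises of the pump genes was not tested.

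Some markers of muscle, fat body and blood cells rose in the mutant lines as well, though not always the same ones in both. The shares of all tested genes that rose were 3.48% in M6stop and 11.6% in F9ΔNLS, and the shares that fell were 2.04% in M6stop and 11.9% in F9ΔNLS. Of 20 muscle sheath markers 5 rose in M6stop (25.0%) and 12 in F9ΔNLS (60.0%), and 0 fell, with medians of 0.13 in M6stop and 0.60 in F9ΔNLS on the log2 scale according to the authors' deposited table. Of 15 fat body markers, which include the yolk protein genes, 7 rose in M6stop (46.7%) and 4 in F9ΔNLS (26.7%), and 0 fell, and the medians were 0.10 in M6stop and 0.12 in F9ΔNLS according to the authors' deposited table. Yp2 was the only fat body marker that rose in both lines. Whether the RNA of the yolk protein genes came from fat body or from cells of the ovary was not tested. Of 9 tested hemocyte markers 2 rose in each line (22.2%), and 0 fell. Hml rose in both lines, by 2.14 in M6stop and 3.09 in F9ΔNLS, according to the authors' deposited table. The second rise was Nplp2 in M6stop (1.52) and Pxn in F9ΔNLS (1.61) according to the authors' deposited table. The other tested hemocyte markers passed in neither line. The hemocyte medians were -0.02 in M6stop and 0.04 in F9ΔNLS according to the authors' deposited table. Among 14 female germline markers 0 passed in M6stop by DESeq2, and 5 rose (35.7%) and 1 fell (7.14%) in F9ΔNLS. Of 15 follicle cell markers 1 rose and 1 fell in M6stop (6.67% each), and 5 rose (33.3%) and 2 fell (13.3%) in F9ΔNLS. The germline medians were -0.007 in M6stop and 0.06 in F9ΔNLS, and the follicle medians 0.01 in M6stop and 0.13 in F9ΔNLS, according to the authors' deposited table. No muscle, fat body, female germline or follicle marker was listed at 0, but neither was any renal tubule or gut marker. A mean above 0 does not by itself show that a tissue was present. The median of the means was 4991 normalized counts for the female germline markers and 2251 for the follicle cell markers. Whole ovaries were sequenced, so more cells of a type and more RNA per cell cannot be told apart, and the part of these cell types in the pump rises was not tested.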

How the data were processed

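Ribosomal-RNA-depleted total RNA of fly ovaries was sequenced in 9 paired-end libraries. The submitters' processing notes name build BDGP6, DESeq2 1.25.10, DESeq, Salmon 1.3.0 and R 3.6.3, with no roles. The authors deposited a signal value, the mean normalized count, which in DESeq2 means counts scaled by size factors. They also deposited log2 fold changes over BG02557 (base 2 assumed) and adjusted p-values, per the file headers. Neither shrinkage, nor the strand setting, nor any gene filter is stated. A further 9 columns of per-library values carry codes that match no label and were not used, so depth per library and replicate spread are unknown here and no model was fitted.

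Calls (adjusted p under 0.05) were counted per direction in Python 3.11.15 with pandas 2.3.3, over all 10662 genes that have an adjusted p. The counting was tested on simulated data. Exon lengths and positions are from Ensembl release 115 (BDGP6.54). Of the 33 members 32 matched by identifier and 1, Vha44, by symbol, and the chromosome was the same in both sources for all 33. The members and the 13 lists (7 entries not found) were chosen with earlier results of these data known, and lists were given no test. All Vha genes, Pcif1 and up to 4 genes per list and line with the smallest adjusted p under 0.05 were to be named. Jon65Aiv, betaTry, Hmgs, Ppt1, tobi, CG14291, slif, CG8379, Irk3, CAH1, Best2 and Oat were named after their values were seen. Splits of reads between copies or overlapping genes are uncertain.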

Additional observations from a re-analysis of the deposited data

How the results depend on the processing

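The count of pump genes that rose depended on the threshold. In M6stop it was 9 at an adjusted p under 0.05, 2 under 0.01 (Vha100-2 and Vha55) and 12 under 0.1. In F9ΔNLS it was 3, against 1 under 0.01 (Vha100-2) and 6 under 0.1. No pump gene was called lower at any of the 3 thresholds. The counts stayed at 9 and 3 with a minimum mean of 50 normalized counts, with a minimum listed log2 change of 0.2, and with a minimum mean of 2000, which was chosen after seeing the data. These minimums could not lower the counts. The lowest mean of the called genes was 4027 in M6stop and 5503 in F9ΔNLS. Their lowest listed change was 0.22 in M6stop and 0.20 in F9ΔNLS. Leading genes were the same per kilobase of exons and of coding sequence in all 15 subunits, and the share of VhaM9.7-b was 82.3% by coding sequence.

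No paired analysis was possible because the library columns carry no sample names or replicate numbers, and for the same reason the planned edgeR fits and the fits without single replicates were not run. Whether 1 library decides a call is therefore unknown. The planned search of promoters for letters bound by Mitf was not run, since no sequence was used here.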

Other observations

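A further gene of this kind has no Vha symbol in the authors' deposited table. CG31030 is named VhaAC45RP in the Ensembl annotation and had a mean of 1.31 normalized counts in the authors' deposited table, with no adjusted p, beside 5624 for VhaAC45. VhaM9.7-c lies 75.8 kb from VhaM9.7-a on 3L, and their means were 449 and 0.98 normalized counts in the authors' deposited table.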
